A study of Mus musculus with 32 samples.

Results

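The replication-dependent histone transcripts are described here in single mouse embryos as the 68 genes, of 34223 in the table, whose symbol begins with Hist1h, Hist2h, Hist3h or Hist4h. The name of the gene was the sole criterion, and no measured value entered the choice. By protein, 19 members encode H2A, 18 encode H2B, 13 encode H4, 12 encode H3 and 6 encode the linker histone H1, counting 2 pseudogenes (Hist1h2aj and Hist3h2bb-ps). In GENCODE M21 on GRCm38, 54 lie in the Hist1 cluster on chromosome 13, 10 in the Hist2 cluster on chromosome 3, 3 in the Hist3 cluster on chromosome 11, and Hist4h4 lies on chromosome 6.

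Each library came from a single wild-type embryo, collected late in the 2-cell stage (28 h from in vitro fertilization). In 16 embryos (Val_LNA) an oligonucleotide containing locked nucleic acid, antisense to the valine tRNA fragment tRFValCAC, had been microinjected together with mRNA for H3.3 fused to green fluorescent protein. The other 16 embryos (Ctrl_LNA) carried the same mRNA with a scrambled oligonucleotide of the same chemistry, so the injected H3.3 message is common to both groups. Embryos without fluorescence were not carried forward, and the comparison asks how inhibition of the fragment, named in the title as sperm-enriched, bears on embryonic transcripts. The labels name no mating or day of injection for any embryo, so each p-value reflects the embryo-to-embryo spread in this set alone.

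Replication-dependent histone genes supply the nucleosome proteins that package newly copied DNA, and their mRNA normally accumulates in S phase. Most of these mRNAs do not carry a poly(A) tail. They end just after a short stem-loop that is bound by the stem-loop binding protein Slbp, and the cut is made with the help of the U7 small nuclear ribonucleoprotein. Some histone genes also give polyadenylated transcripts, by use of a poly(A) signal beyond the stem-loop or by splicing to a downstream exon. The oocyte stores histone mRNA and protein for the first divisions. Polyadenylated RNA was the starting material here, so histone mRNA without a tail is largely outside what was measured.

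Library depth was 2592925 to 6259870 reads. Ctrl_LNA 48 stood apart, with 7276 genes detected, against 16687 to 20200 in the other 31 embryos. Group means, SDs and ranges that its omission moves by over 1.5 times, or calls that it changes, are also given without it. Medians and log2 fold changes include it unless stated otherwise. Of the late 2-cell markers, 13 of 13 in the table had a mean of at least 10 normalized counts, with summed levels of 6102 to 35826 (median 10096) in Val_LNA and 3430 to 35945 (median 7696) in Ctrl_LNA. Oocyte and maternal complex markers (10 of 10 with that mean) summed to 7380 to 36352 (median 14868) in Val_LNA and 2990 to 24464 (median 10284) in Ctrl_LNA, where the lowest sum without Ctrl_LNA 48 was 6518. Cumulus and granulosa markers (5 of 12) had a median sum of 639 in Val_LNA and 607 in Ctrl_LNA, and sperm markers (1 of 9) of 32.2 in Val_LNA and 33.5 in Ctrl_LNA. In a whole embryo, fewer cells and less RNA per cell cannot be told apart.

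All 68 members had at least 1 read in at least 1 embryo, but most were scarce. Of these, 8 were detected in 32 of 32 embryos, 51 in at least 16, and 5 in at most 5. In 11 members no embryo reached 10 normalized counts, and 2 members, Hist1h2ap and Hist1h2ao, averaged at least 100. An embryo had 47.4 ± 8.1 members detected in Val_LNA and 39.6 ± 9.3 in Ctrl_LNA (mean ± SD, 16 embryos a group), or 41.3 ± 6.2 in Ctrl_LNA without Ctrl_LNA 48 (n = 15). Members together took 0.0249% ± 0.0135 of the reads in Val_LNA and 0.0184% ± 0.0053 in Ctrl_LNA.

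Where the annotated transcripts end differs between members, and the ends of those described most closely are printed here with their coordinates on GRCm38. The stem-loop was searched as 16 bases (GG, any 2 bases, CTT, any base, T, any base, AG, any 2 bases, CC) on the transcript strand only of the GENCODE M21 transcripts. It was present in 155 of 55382 other genes (0.28%). Among the members that hold it, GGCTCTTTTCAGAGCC was the most frequent core in H2A (10 genes), H2B (8), H3 (5) and H1 (3), and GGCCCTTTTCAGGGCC the most frequent in H4 (7 genes). Capitals mark the stem-loop core in the first 5 lines and the poly(A) signal AATAAA or ATTAAA in the others.
Hist1h2ap stem-loop, chr13:21833026-21833049, minus strand: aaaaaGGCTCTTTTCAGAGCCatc
Hist1h2ao stem-loop, chr13:21810893-21810918, plus strand: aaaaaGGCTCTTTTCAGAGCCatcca
Hist1h2bp stem-loop, chr13:21787918-21787943, plus strand: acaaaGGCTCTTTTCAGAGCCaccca
Hist1h3g stem-loop, chr13:23535884-23535909, plus strand: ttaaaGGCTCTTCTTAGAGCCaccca
Hist1h4i stem-loop, chr13:22040961-22040986, minus strand: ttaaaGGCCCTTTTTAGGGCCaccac
Hist1h2bp poly(A) signal, chr13:21789179-21789208, plus strand: atacattataaaAATAAAggtttcaatcta
Hist1h2bq poly(A) signal, chr13:21807286-21807315, minus strand: agaagaatattaAATAAAtttgtttcttct
Hist1h2br poly(A) signal, chr13:21836627-21836656, plus strand: agaagaatattaAATAAAtttgtttcttct
Hist1h4i poly(A) signal, chr13:22040639-22040668, minus strand: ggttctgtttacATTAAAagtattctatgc

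The transcript models of Hist1h2ap and Hist1h2ao stop 3 and 31 bases after the stem-loop core. The model of Hist1h4i runs 330 bases past its core and ends near a poly(A) signal. Hist1h2bp has 2 models, an unspliced one that ends 38 bases after the core, and a spliced one of 2 exons that lacks the stem-loop. Hist1h2bc (chr13:23684199-23692908) has a single model of 2 exons, in which the stem-loop was not found. Over all members, 4 H2B genes (Hist1h2bc, Hist1h2bp, Hist1h2bq and Hist1h2br) have a spliced model without the stem-loop. The longest models of 23 genes run at least 100 bases past the stem-loop, those of 22 end within 100 bases of it, and in those of 17 no stem-loop was found. Among the 17, the model of Hist2h2be extends 2192 bases past its stop codon to a poly(A) signal. Those of Hist1h1a and Hist2h3b end 48 and 37 bases past the stop codon, and the others at most 2 bases past it. A stem-loop beyond the end of these short models could not have been found. The table gives 1 value per gene, so spliced and stem-loop forms cannot be told apart in it.

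The members called different between the groups were both H2B genes. Hist1h2bc averaged 87.6 ± 92.2 normalized counts in Val_LNA and 7.33 ± 10.2 in Ctrl_LNA (mean ± SD, 16 embryos a group), and Hist1h2bp 29.8 ± 41.0 in Val_LNA and 1.23 ± 2.57 in Ctrl_LNA. Both rose at a Benjamini-Hochberg adjusted p under 0.05 in limma. The most abundant members per length, Hist1h2ap and Hist1h2ao, had lower means in Val_LNA and did not pass. Of the 18 members that passed the filter on low values (at least 10 normalized counts in at least 8 of 32 embryos), 2 were called higher, against 0.881% of all 15559 tested genes, and 0 lower, against 1.31%. Hist1h2bc reached 10 normalized counts in 14 Val_LNA and 5 Ctrl_LNA embryos, and Hist1h2bp in 11 Val_LNA embryos and 1 Ctrl_LNA embryo. Both thus passed the filter through Val_LNA, where they were high, which can raise the count of calls on the higher side.

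Hist1h2bc (ENSMUSG00000018102.5), a gene for the core histone H2B, ranged over 4.91 to 346 normalized counts in Val_LNA (median 74.4) and 0 to 31.6 in Ctrl_LNA (median 0.365). It was detected in 16 of 16 Val_LNA embryos and 8 of 16 Ctrl_LNA embryos, and 11 Val_LNA embryos lay above the highest Ctrl_LNA embryo, so the groups overlapped in part. These values rest on 1263 reads in Val_LNA and 123 in Ctrl_LNA. Its log2 fold change, the difference of group means of log2(normalized count + 1), was 3.91 ± 0.66 (SE, limma adjusted p = 0.000393). In edgeR it was 3.52 (adjusted p = 0.0143) and in DESeq2 3.59 (adjusted p = 0.000137). Within the lower runs of library numbers (Val_LNA 1 to 8, Ctrl_LNA 31 to 38) it was 3.58 (limma adjusted p = 0.0791), and within the upper runs (Val_LNA 13 to 20, Ctrl_LNA 43 to 50) 4.23 (limma adjusted p = 0.0258). Each unbroken run holds embryos of a single group, and no label joins a Val_LNA run to a Ctrl_LNA run. Values within the lower or upper runs are therefore not comparisons within a known batch. Of the 50-base stretches of Hist1h2bc, 69.4% occur in no other annotated transcript and 23.1% are shared with Hist1h2bg, a scarce H2B gene.

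Hist1h2bp (ENSMUSG00000069308.7, chr13:21787461-21789213), a further H2B gene, ranged over 0 to 147 normalized counts in Val_LNA (median 13.4) and 0 to 10.2 in Ctrl_LNA (median 0.315). In Val_LNA, 11 embryos lay above the highest Ctrl_LNA embryo, while 4 had no read. The log2 fold change was 2.84 ± 0.65 (SE, limma adjusted p = 0.0108), with 4.34 in edgeR (adjusted p = 0.00842) and 4.59 in DESeq2 (adjusted p = 7.81e-05). Ctrl_LNA 50 held the highest Ctrl_LNA value, and without it the Ctrl_LNA mean was 0.634. When embryos were centred on their median gene the call was lost with Ctrl_LNA 48 in the fit (2.39, limma adjusted p = 0.0724) and kept without it (2.72, limma adjusted p = 0.0115). It was also lost within the lower runs (3.57, limma adjusted p = 0.107) and the upper runs (2.10, limma adjusted p = 0.443). Of the 50-base stretches of Hist1h2bp, 55.9% occur in no other annotated transcript and 34.4% are shared with Hist1h2bq and with Hist1h2br, so reads of the shared stretches could have been counted for any of these genes.

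**Figure D1:**
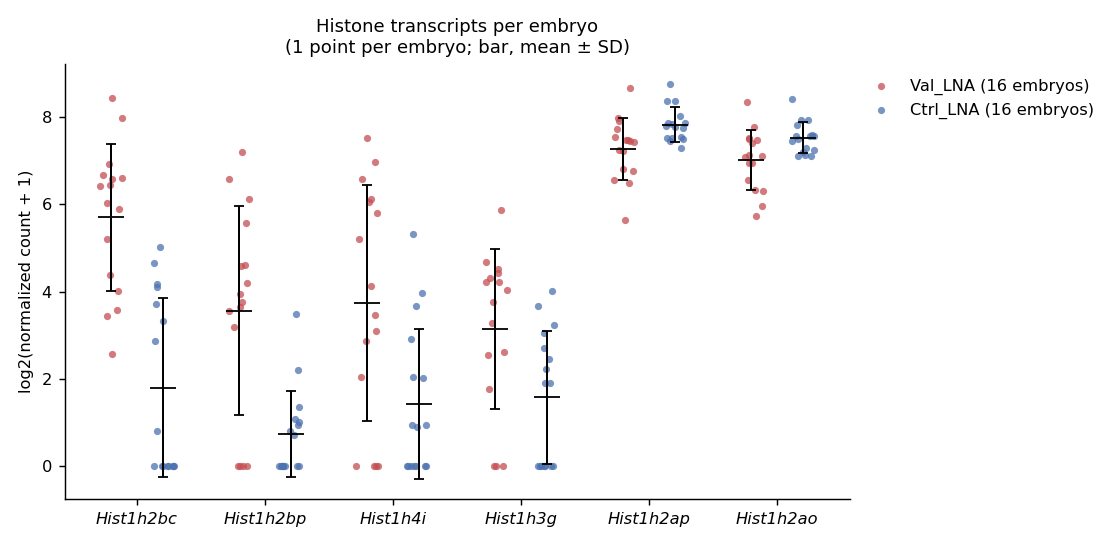
The plot shows log2(normalized count + 1) of 6 histone genes in each embryo, Val_LNA left and Ctrl_LNA right of each pair, with the mean and SD over 16 embryos. For Hist1h2bc 11 Val_LNA embryos lie above every Ctrl_LNA embryo, whereas for Hist1h2ap and Hist1h2ao the groups overlap, with Val_LNA embryos reaching lower.

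Other H2B genes were low in Ctrl_LNA and uneven in Val_LNA. Hist1h2bk, the remaining H2B gene that passed the filter, averaged 21.2 ± 25.8 normalized counts in Val_LNA and 6.89 ± 7.10 in Ctrl_LNA (log2 fold change 1.25 ± 0.54, SE, limma adjusted p = 0.268). Hist1h2br and Hist1h2bq did not pass the filter. Hist1h2br averaged 30.0 ± 58.0 in Val_LNA and 2.18 ± 2.46 in Ctrl_LNA, and reached 206 in Val_LNA 1 and 124 in Val_LNA 4. Hist1h2bq averaged 19.3 ± 40.4 in Val_LNA and 0.592 ± 0.986 in Ctrl_LNA, with 133 in Val_LNA 1 and 96.4 in Val_LNA 4. These genes share 97.3% of the 50-base stretches of Hist1h2bq and cannot be separated reliably. Without Val_LNA 1 the Val_LNA means were 18.2 for Hist1h2br and 11.7 for Hist1h2bq. Hist1h2bh averaged 19.5 ± 35.1 in Val_LNA (11.7 without Val_LNA 1) and 2.90 ± 4.28 in Ctrl_LNA. Hist3h2ba averaged 14.8 ± 25.3 in Val_LNA (9.18 without Val_LNA 4) and 3.28 ± 4.25 in Ctrl_LNA.

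Summed over the 18 H2B members, the normalized counts of an embryo were 257 ± 319 in Val_LNA (27.0 to 1210, median 117) and 37.4 ± 29.7 in Ctrl_LNA (0 to 87.8, median 24.5, lowest 3.6 without Ctrl_LNA 48). Within the lower runs the H2B sums were 399 ± 410 in Val_LNA and 48.1 ± 28.7 in Ctrl_LNA, and within the upper runs 115 ± 67.0 in Val_LNA and 26.6 ± 28.4 in Ctrl_LNA (SD over 8 embryos a run). The mean of 16 of 18 H2B genes was higher in Val_LNA, against 56.6% of all genes. The 4 H2B genes with a spliced model without the stem-loop accounted for 167 ± 214 normalized counts in Val_LNA and 11.3 ± 12 in Ctrl_LNA (ratio of means 14.7). Their sum had a median of 94.2 and a highest value of 832 in Val_LNA, and 9.14 and 40.6 in Ctrl_LNA. Both called genes are among these 4, with Hist1h2bc averaging 87.6 in Val_LNA and 7.33 in Ctrl_LNA. Hist1h2bq and Hist1h2br, the others, are not independent. The 23 genes whose models run past the stem-loop summed to 380 ± 351 in Val_LNA and 179 ± 101 in Ctrl_LNA (ratio 2.12), and the 22 whose models end within 100 bases of it to 447 ± 156 in Val_LNA and 488 ± 135 in Ctrl_LNA (ratio 0.92). The sum of those 22 includes Hist1h2ap (mean 172 in Val_LNA, 236 in Ctrl_LNA) and Hist1h2ao (142 in Val_LNA, 190 in Ctrl_LNA). By gene, the mean was higher in Val_LNA for 17 of the 22, 22 of the 23 and 4 of the 4. The ratio of 0.92 thus follows this pair and not most genes of its class. These sums are descriptions, and the differences between the classes of ends were not tested.

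Most H2A counts came from a near-identical pair of genes. Hist1h2ap (ENSMUSG00000094777.2, chr13:21833026-21833507) averaged 172 ± 83.5 normalized counts in Val_LNA (48.7 to 405, median 173) and 236 ± 73.8 in Ctrl_LNA (157 to 437, median 220). In Val_LNA, 7 embryos lay below the lowest Ctrl_LNA embryo and the rest overlapped the Ctrl_LNA range. Its log2 fold change was -0.56 ± 0.25 (SE, limma adjusted p = 0.292). Hist1h2ao (chr13:21810465-21810944) averaged 142 ± 68.6 in Val_LNA and 190 ± 53.4 in Ctrl_LNA, with a log2 fold change of -0.52 ± 0.25 (limma adjusted p = 0.327). These genes share 93.1% of the 50-base stretches of Hist1h2ap, and the ratio of Hist1h2ap to Hist1h2ao stayed between 0.925 and 1.43 over the 32 embryos, so their values are not independent.

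Per kilobase of annotated exon, Hist1h2ap and Hist1h2ao led all members, with 356 and 297 normalized counts per kilobase in Val_LNA and 490 and 396 in Ctrl_LNA. Hist1h2bc had 75.8 in Val_LNA and 6.34 in Ctrl_LNA on this scale. Hist1h2ap and Hist1h2ao together made up 5.62% to 72.2% of the summed member counts of an embryo in Val_LNA (median 38.2%) and 37.1% to 92.5% in Ctrl_LNA (median 58.9%). The highest Ctrl_LNA share was that of Ctrl_LNA 48, and without it the highest was 75.3%. Among the other H2A genes, Hist1h2ac averaged 13.7 ± 23.9 normalized counts in Val_LNA and 7.74 ± 8.31 in Ctrl_LNA (log2 fold change 0.28 ± 0.45, SE, limma adjusted p = 0.784). Val_LNA 1 had 100.2 of Hist1h2ac, and without it the Val_LNA mean was 7.92. Hist2h2aa1 averaged 32.8 ± 25.6 in Val_LNA and 16.2 ± 11.4 in Ctrl_LNA (1.05 ± 0.49, limma adjusted p = 0.312). All 50-base stretches of Hist2h2aa1 also occur in Hist2h2aa2, a further member, and in the gene models Gm20632, Gm20633 and Gm20634. Gm20632 overlaps Hist2h2aa1 on the opposite strand, and the libraries do not mark strand. The value of Hist2h2aa1 is therefore uncertain. Hist3h2a, below the filter, averaged 14.6 ± 25.1 in Val_LNA (9.33 without Val_LNA 4) and 4.81 ± 6.61 in Ctrl_LNA, and shares an exon region with Trim17. The 19 H2A genes summed to 432 ± 169 in Val_LNA and 496 ± 138 in Ctrl_LNA.

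H2A and H2B genes often stand head to head and share the stretch between their starts. The annotation holds 13 such pairs with at most 500 bases between the starts. The H2B partner had the higher mean in Val_LNA in 11 of 13 pairs and the H2A partner in 7 of 13, against 56.6% of all genes. By medians, which single embryos move less, the counts were 7 of 13 for H2B and 5 of 13 for H2A. Of the remaining H2B partners, Hist1h2bn had the lower median in Val_LNA, and the others had a median of 0 in both groups. The remaining H2A partners all had the lower median in Val_LNA. For Hist1h2bc and Hist1h2ac, which lie 250 bases apart, the means were 87.6 in Val_LNA and 7.33 in Ctrl_LNA for the H2B gene, and 13.7 in Val_LNA (7.92 without Val_LNA 1) and 7.74 in Ctrl_LNA for the H2A gene. For Hist1h2bp and Hist1h2an, 242 bases apart, they were 29.8 in Val_LNA and 1.23 in Ctrl_LNA for the H2B gene, and 2.75 in Val_LNA and 3.84 in Ctrl_LNA for the H2A gene. Hist1h2br lies 235 bases from Hist1h2ap, and Hist1h2bq 267 bases from Hist1h2ao. In both of these pairs the H2B mean was higher and the H2A mean lower in Val_LNA. No test was made of a difference between partners.

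The window of Hist1h2ac from RefSeq on GRCm38.p6, 250 bases before to 50 after the start, covers the whole stretch that Hist1h2ac shares with Hist1h2bc, and is printed with that of Hist1h2bp because both called genes start there. Capitals mark the letters CCAAT and TATAAA and the octamer ATTTGCAT. Each was searched on both strands, so the reverse complement is in capitals too.
Hist1h2ac promoter window, chr13:23683910-23684209, minus strand: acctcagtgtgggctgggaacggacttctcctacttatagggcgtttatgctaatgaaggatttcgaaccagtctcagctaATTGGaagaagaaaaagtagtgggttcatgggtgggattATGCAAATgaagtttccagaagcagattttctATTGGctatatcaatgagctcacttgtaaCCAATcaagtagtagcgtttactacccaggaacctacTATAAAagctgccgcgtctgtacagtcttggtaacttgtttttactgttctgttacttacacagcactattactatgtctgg
Hist1h2bp promoter window, chr13:21787238-21787537, plus strand: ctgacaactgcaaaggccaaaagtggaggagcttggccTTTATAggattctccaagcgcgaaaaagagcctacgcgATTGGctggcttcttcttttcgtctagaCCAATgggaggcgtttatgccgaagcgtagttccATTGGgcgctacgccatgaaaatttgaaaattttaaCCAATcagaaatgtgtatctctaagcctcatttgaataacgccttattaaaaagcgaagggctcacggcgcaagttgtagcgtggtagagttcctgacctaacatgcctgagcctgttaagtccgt

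Of the members, 58 had such a window. None of these motifs contains another. CCAAT was found in 84.5% of these windows, against 37.4% of 32851 windows of all genes, and TATAAA in 56.9% against 13.6%. Every H1, H2A, H2B and H3 window held CCAAT, but only 3 of 12 H4 windows (25.0%) did, below the share of all genes. The octamer, known as a binding site of POU factors in H2B promoters, was found in 22.4% of member windows against 1.7% of all. It was present in 6 of 15 H2B and 7 of 16 H2A windows, and in none of the 5 H1, 10 H3 and 12 H4 windows. Windows of head-to-head partners cover part of the same stretch, so the H2A and H2B counts are not independent. The window of Hist1h2bp holds CCAAT but not the octamer letters. It holds TATAAA only as the reverse complement, at the end of the window towards its partner Hist1h2an. These matches describe the letters of the windows.

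H4 genes encode a core histone, and none of the 5 tested passed in limma. Hist1h4i (ENSMUSG00000060639.5, chr13:22040636-22041362) averaged 41.9 ± 53.8 normalized counts in Val_LNA (0 to 182, median 13.2) and 5.04 ± 10.1 in Ctrl_LNA (0 to 38.8, median 0.875). The Ctrl_LNA mean of Hist1h4i was 2.79 without Ctrl_LNA 32. In Val_LNA, 6 embryos lay above the highest Ctrl_LNA embryo and 4 had no read. Its log2 fold change was 2.32 ± 0.78 (SE, limma adjusted p = 0.124), 2.98 in edgeR (adjusted p = 0.14) and 3.06 in DESeq2 (adjusted p = 0.0372), so the call depended on the test. Hist1h4c averaged 28.2 ± 30.5 in Val_LNA and 11.4 ± 10.6 in Ctrl_LNA (1.22 ± 0.54, limma adjusted p = 0.287). Hist1h4d averaged 27.4 ± 40.2 in Val_LNA (17.9 without Val_LNA 8) and 17.9 ± 14.6 in Ctrl_LNA (0.38 ± 0.60, limma adjusted p = 0.778, or 0.14 without Ctrl_LNA 48). The means of Hist1h4a were 13.7 in Val_LNA and 7.39 in Ctrl_LNA (0.86, limma adjusted p = 0.428), and those of Hist1h4h 12.3 in Val_LNA and 5.61 in Ctrl_LNA (0.84, limma adjusted p = 0.484). The 13 H4 genes summed to 155 ± 156 in Val_LNA and 60.8 ± 49.9 in Ctrl_LNA.

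None of the 5 tested genes for the core histone H3 passed in limma. In the Hist1 cluster, Hist1h3g averaged 14.3 ± 14.4 normalized counts in Val_LNA (0 to 57.6, median 14) and 3.85 ± 4.70 in Ctrl_LNA (0 to 15.1, median 2.73), with a log2 fold change of 1.57 ± 0.61 (SE, limma adjusted p = 0.207). Hist1h3f averaged 34.6 ± 32.5 in Val_LNA and 15 ± 12.7 in Ctrl_LNA (1.25 ± 0.52, limma adjusted p = 0.243). Hist1h3d, below the filter, was detected in 9 Val_LNA embryos and 3 Ctrl_LNA embryos, with 303 reads in Val_LNA and 3 in Ctrl_LNA, and reached 154 normalized counts in Val_LNA 8. Every one of the 9 Val_LNA embryos with a read lay above the highest Ctrl_LNA embryo. In the Hist2 cluster, Hist2h3c1 averaged 51.6 ± 59.5 in Val_LNA and 42.3 ± 25.8 in Ctrl_LNA (-0.03 ± 0.53, limma adjusted p = 0.987). Hist2h3c2 averaged 39.5 ± 40.7 in Val_LNA and 37.8 ± 22.8 in Ctrl_LNA (-0.12 ± 0.46, limma adjusted p = 0.919), and Hist2h3b 10.6 ± 7.16 in Val_LNA and 12.2 ± 6.31 in Ctrl_LNA (-0.20 ± 0.41, limma adjusted p = 0.841). Without Ctrl_LNA 48 the log2 fold changes were -0.36 for Hist2h3c1, -0.38 for Hist2h3c2 and -0.43 for Hist2h3b, and none was called in limma. Hist2h3c1 and Hist2h3b lie wholly within the sequence of overlapping Gm models, and Hist2h3c2 shares 63.5% of its 50-base stretches with Hist2h3c1 and Gm20634, so these levels are uncertain.

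H1 was represented among the tested members by Hist1h1a, a linker histone gene whose sequence is unique at 50 bases. It averaged 23.9 ± 13.8 normalized counts in Val_LNA (6.13 to 57.7, median 23.2) and 27.8 ± 22.9 in Ctrl_LNA (1.05 to 92.6, median 23.4, lowest 6.31 without Ctrl_LNA 48). The groups overlapped throughout, with a log2 fold change of 0.01 ± 0.42 (SE, limma adjusted p = 0.994). The log2 fold changes of Hist1h1a, Hist1h2ac, Hist1h4d, Hist2h3c1 and Hist2h3c2 changed sign under at least 1 alternative, and no direction is given for them.

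**Figure D2:**
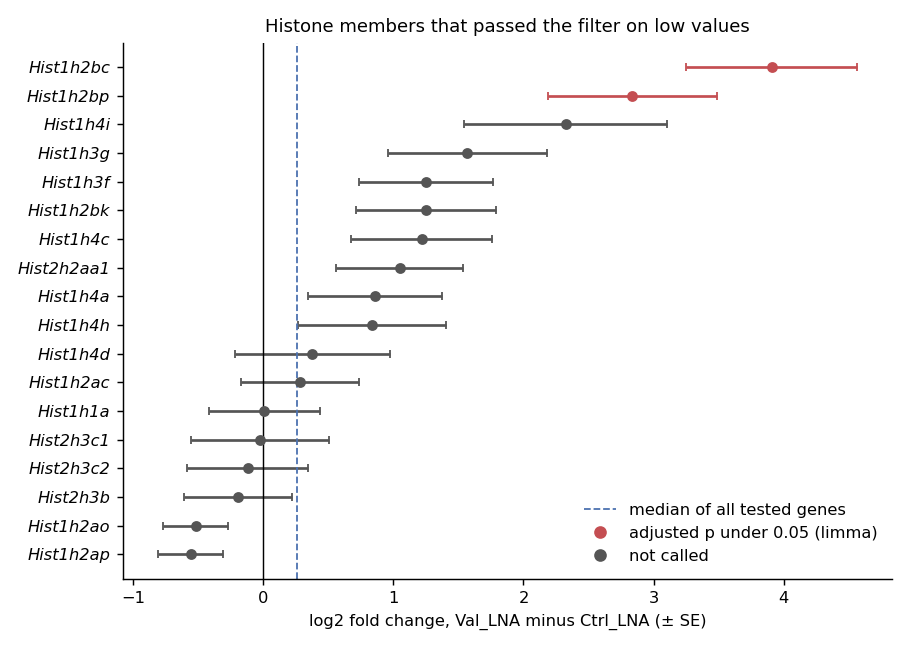
Log2 fold changes of the 18 tested members, Val_LNA minus Ctrl_LNA, are drawn with their SE. Hist1h2bc (3.91) and Hist1h2bp (2.84) are the called genes, and the dashed line marks the median of all 15559 tested genes (0.26).

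Across the 18 tested members the median log2 fold change was 0.85, against 0.26 over all tested genes, and 13 of 18 lay above 0, against 64.3% of all tested genes. Without Ctrl_LNA 48 the medians were 0.70 for the members and 0.07 for all tested genes. With embryos centred on their median gene, which moved the median of all genes to -0.19, the members' median was 0.40. The filter itself shapes this set: 14 members reached 10 normalized counts in 8 Val_LNA embryos and 9 did so in 8 Ctrl_LNA embryos. Some, both called members among them, thus entered through Val_LNA alone. EdgeR on the recovered reads called the same 2 members higher (0.186% of all genes) and DESeq2 called 3, with Hist1h4i added (1.32% of all genes), while 5 members got no adjusted p in DESeq2. No member was called lower in limma, edgeR (1.08% of all genes) or DESeq2 (2.17% of all genes), and in limma 2 (Hist1h2ap and Hist1h2ao) had an unadjusted p under 0.05 on the lower side and 8 on the higher side, against 5.8% and 8.9% of all tested genes. Without Ctrl_LNA 48, limma called 2 members higher (1.57% of all genes) and 0 lower (2.63% of all genes). With no filter, limma called 3 of 68 members higher (0.254% of all 34223 genes), the additional one being Hist1h2bg, and 0 lower (0.465% of all genes). EdgeR with no filter called 10 members higher (5.63% of all genes) and 2 lower (5.88% of all genes). Such calls can rest on few reads. Those lower, Hist3h2bb-ps and Hist2h2ab, had 6 reads each in Ctrl_LNA and 0 in Val_LNA. Of those higher, Hist1h1t had 15 reads, all in 1 Val_LNA embryo. These 3 genes were named after their values were seen. Hist1h2bg, named here after its values were seen, averaged 3.33 ± 3.42 in Val_LNA and 0.178 ± 0.384 in Ctrl_LNA (1.5 ± 0.35, SE, limma adjusted p = 0.0239). Only 50.3% of the 50-base stretches of Hist1h2bg occur in no other annotated transcript, and the gene that shares most of them is the called Hist1h2bc. Whether reads of Hist1h2bc were counted for Hist1h2bg was not tested. The interaction of group and run of library numbers, tested in limma, called 0 of 18 members (lowest adjusted p = 0.831), with 0 at an unadjusted p under 0.05 and 808 of all 15559 genes at that level.

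Val_LNA embryos differed widely among themselves. The summed level of the 66 members other than Hist1h2ap and Hist1h2ao was 788 ± 694 normalized counts in Val_LNA (175 to 2208, median 406) and 328 ± 156 in Ctrl_LNA (26.3 to 581, median 270), or 349 ± 138 in Ctrl_LNA without Ctrl_LNA 48. The highest sums were 2208 in Val_LNA 1, 2085 in Val_LNA 8, 1701 in Val_LNA 4, 1394 in Val_LNA 14 and 1099 in Val_LNA 2, and 9 of the other 11 Val_LNA embryos lay within the range of Ctrl_LNA, or 8 without Ctrl_LNA 48, whose omission raises the lowest Ctrl_LNA sum to 176. Within the lower runs these sums were 1084 ± 825 in Val_LNA and 388 ± 135 in Ctrl_LNA, and within the upper runs 491 ± 388 in Val_LNA and 269 ± 159 in Ctrl_LNA (SD over 8 embryos a run).

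**Figure D3:**
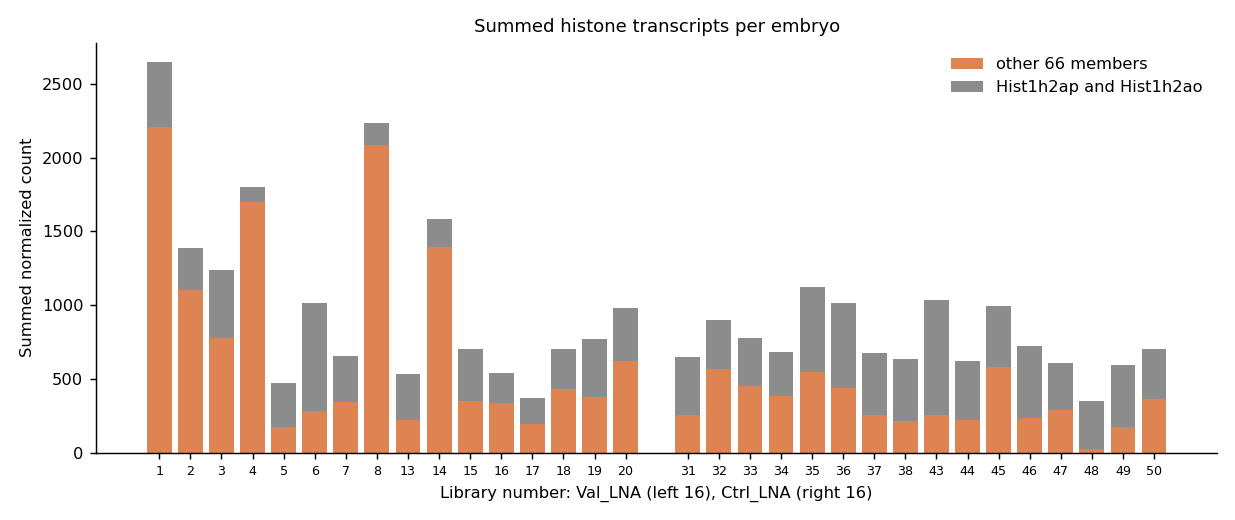
Stacked bars give the summed normalized counts of the 68 members in each embryo, Val_LNA left and Ctrl_LNA right, split into Hist1h2ap with Hist1h2ao and the other 66 members. Val_LNA 1, 4, 8 and 14 carry the tallest lower segments (1394 to 2208), while no Ctrl_LNA embryo passes 581.

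Counted by member, 55 of 68 had their highest embryo in Val_LNA (80.9%, against 54.0% of all 34223 genes), and 55 had the higher mean in Val_LNA (80.9%, against 56.6% of all genes). Val_LNA 1 held the highest value of 18 members, Val_LNA 8 of 12, Val_LNA 14 of 11 and Val_LNA 4 of 10. Over all genes these embryos held 2.54%, 7.49%, 9.62% and 5.58% of the highest values. The depths of Val_LNA 1, 4, 8 and 14 were 3128567, 4599490, 4405147 and 4736289 reads. Their late 2-cell marker sums were 15091, 12743, 35826 and 21209, and their maternal marker sums 18916, 19384, 24532 and 36352, all above the Val_LNA medians. Ctrl_LNA 32 had a late 2-cell sum of 35945 with 564 normalized counts in the 66 members. The part of embryo stage or maternal RNA in the histone levels was not tested.

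**Figure D4:**
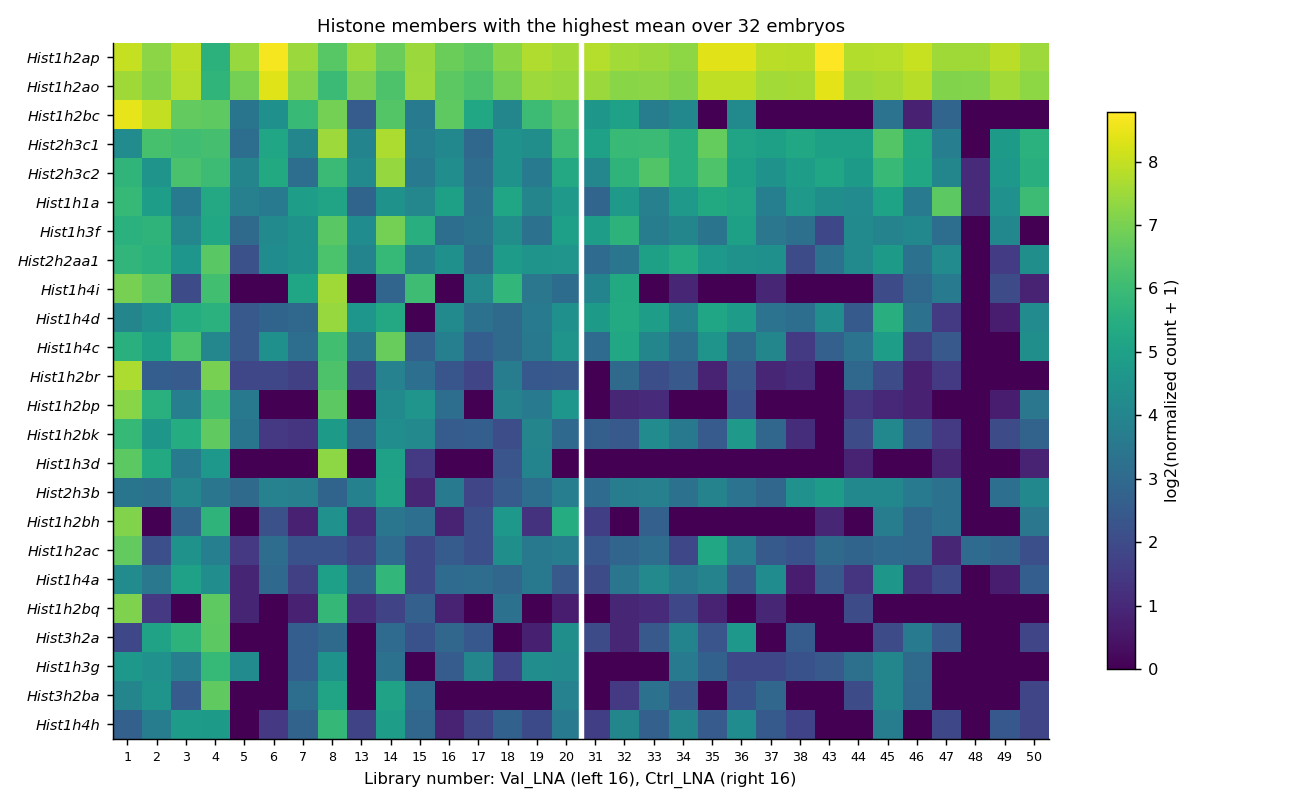
The colour scale gives log2(normalized count + 1) of the 24 members with the highest means, in rows, for each embryo, in columns, Val_LNA left and Ctrl_LNA right of the white line. Hist1h2ap and Hist1h2ao are high in all 32 embryos, whereas Hist1h2bc, Hist1h2bp and Hist1h3d are at or near 0 in many Ctrl_LNA embryos.

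Among genes that make and process histone mRNA, those that passed were lower in Val_LNA. Of 43 listed genes for histone transcription, 3′ processing and decay, all tested, 0 were higher, 3 lower and 40 did not pass in limma, against 1.31% of all genes lower. At an unadjusted p under 0.05 limma had 3 higher and 7 lower, against 8.9% and 5.8% of all tested genes. On the higher side edgeR called 0 and DESeq2 1 (Cpsf6). The list median was -0.02, against 0.26 over all tested genes, or -0.125 against 0.07 without Ctrl_LNA 48. Npat, the coactivator of replication-dependent histone genes, had 12.8 to 256 normalized counts in Val_LNA (median 97.6) and 22.1 to 713 in Ctrl_LNA (median 415). All 16 Val_LNA embryos lay below the Ctrl_LNA median, and without Ctrl_LNA 48 the lowest Ctrl_LNA embryo had 175. Npat fell by 2.17 on the log2 scale (± 0.40, SE, limma adjusted p = 0.00132), with -2.38 in the lower runs (limma adjusted p = 0.014) and -1.97 in the upper runs (limma adjusted p = 0.374, or 0.00441 without Ctrl_LNA 48).

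Casp8ap2, also called FLASH, which works with the U7 machinery at the 3′ end of histone mRNA, ranged over 214 to 2668 normalized counts in Val_LNA (median 1177) and 1692 to 5014 in Ctrl_LNA (median 2397), where the highest was Ctrl_LNA 48 and the next 2990. In Val_LNA, 14 embryos lay below the lowest Ctrl_LNA embryo. Its log2 fold change was -1.27 ± 0.24 (SE, limma adjusted p = 0.0018), with -1.48 in the lower runs (limma adjusted p = 0.0645) and -1.06 in the upper runs (limma adjusted p = 0.163), and -1.72 centred on the median gene (limma adjusted p = 0.0593, or 0.0015 without Ctrl_LNA 48). Eri1, an exonuclease that trims histone mRNA ends, averaged 85.3 ± 106 in Val_LNA and 209 ± 167 in Ctrl_LNA, or 174 ± 91.4 without Ctrl_LNA 48 (-2.25 ± 0.61, limma adjusted p = 0.0407). Eri1 was not called in edgeR (-1.30, adjusted p = 0.346) or DESeq2 (-1.30, adjusted p = 0.145), and lost its call when any of 19 embryos was left out. Slbp, which binds the stem-loop itself, averaged 2180 ± 784 in Val_LNA and 2226 ± 547 in Ctrl_LNA (-0.08 ± 0.17, limma adjusted p = 0.841). Without Ctrl_LNA 48, limma called 5 genes of the list lower and 1 higher, against 2.63% of all genes lower and 1.57% higher in that fit. Those added, named after their values were seen, were Srrt, a partner of the cap-binding complex (-2.70, limma adjusted p = 0.000274), the histone chaperone gene Nasp (-0.71, limma adjusted p = 0.00776) and the cleavage factor gene Cpsf6 (0.96, limma adjusted p = 0.0435).

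**Figure D5:**
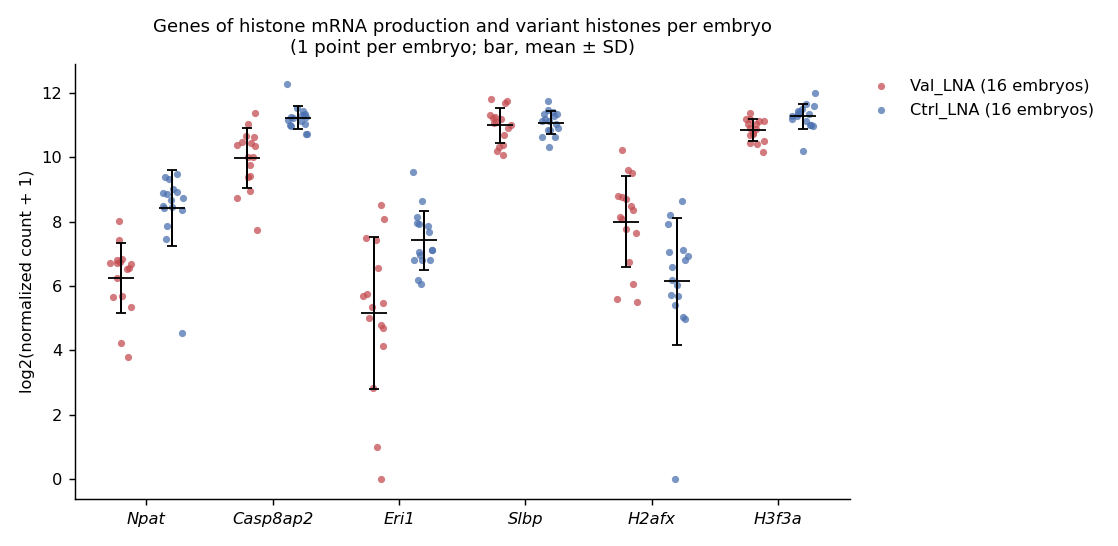
The plot shows log2(normalized count + 1) per embryo for 4 genes of histone mRNA production and for H2afx and H3f3a, Val_LNA left and Ctrl_LNA right, with the mean and SD over 16 embryos. Npat and Casp8ap2 lie lower in nearly all Val_LNA embryos, and Slbp overlaps between the groups.

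Variant histone genes outside the clusters showed no call in limma. Of 23 listed, 17 were in the table and 11 were tested, with 0 higher and 0 lower and a median of -0.06 (-0.04 without Ctrl_LNA 48). At an unadjusted p under 0.05 limma had 1 higher and 2 lower, against 8.9% and 5.8% of all tested genes. EdgeR also called 0, and DESeq2 called H2afx alone. H2afx, the gene of the damage-responsive variant H2A.X, averaged 371 ± 312 in Val_LNA and 117 ± 108 in Ctrl_LNA (1.86 ± 0.58, SE, limma adjusted p = 0.0941, DESeq2 adjusted p = 0.0132). The H3.3 genes H3f3a and H3f3b averaged 1892 ± 431 and 5317 ± 1140 in Val_LNA and 2550 ± 645 and 5640 ± 3016 in Ctrl_LNA, with 4943 ± 1189 for H3f3b without Ctrl_LNA 48. Their log2 fold changes were -0.42 ± 0.14 (limma adjusted p = 0.124) and 0.00 ± 0.15 (limma adjusted p = 0.999), with 0.11 for H3f3b without Ctrl_LNA 48. Whether reads of the injected H3.3 mRNA fell on these genes was not tested. Without Ctrl_LNA 32, H3f3a was called lower (-0.49, limma adjusted p = 0.0303). H1foo, the linker histone of the oocyte, averaged 836 ± 733 in Val_LNA and 805 ± 1477 in Ctrl_LNA, or 449 ± 399 without Ctrl_LNA 35 (0.90 ± 0.63, limma adjusted p = 0.493). Its medians were 556 in Val_LNA and 404 in Ctrl_LNA.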

How the data were processed

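Per the labels' protocols, single embryos were lysed, RNA on beads was copied into cDNA by template switching, amplified in 20 PCR cycles, and tagmented for sequencing, with polyA RNA given as the molecule. No molecular identifiers are named and strand is not marked, so PCR copies count as reads and sense and antisense cannot be separated. The tools named, per the submitters' processing notes, are STAR, Bowtie2, DESeq2 and SAMtools with the build mm10. Neither roles nor versions were given in the sources used here. Each deposited signal value is a gene's read count divided by the embryo's size factor, per the file headers. The deposited size factors are a ratio per embryo, made by the authors. Their product was a whole number, within 0.01 reads, for 1095136 of 1095136 values (100%), and these recovered reads entered the count tests. Identifiers of 34179 of 34223 genes matched GENCODE M21, which supplied coordinates and transcripts on GRCm38, and all 68 members matched. The file's Hist2h2aa1 was matched by its identifier, which GENCODE names Hist2h2aa2, and the file's Hist2h2aa2 by the identifier that GENCODE names Hist2h2aa1.

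The main test was limma 3.58.1 (R 4.3.3, trend and robust) on log2(normalized count + 1), over 15559 genes with at least 10 normalized counts in at least 8 embryos. A gene was called where its adjusted p (Benjamini-Hochberg) was below 0.05. This scale understates fold changes of low genes. Alternatives were edgeR 4.0.16 (quasi-likelihood) and DESeq2 1.42.0 on the recovered reads, other scalings, pseudocounts and filters, the runs of library numbers, which the labels do not call batches, and leaving out embryos. Joining a Val_LNA run to a Ctrl_LNA run as lower or upper was a choice made here, also for the interaction. The scripts were tested on simulated data. No pair of embryos within a group agreed within sampling noise (lowest chi-square per gene 25.3 over 240 pairs). No column was without a sample. Summaries used Python 3.11.15 with pandas 2.3.3, numpy 2.4.6 and matplotlib 3.10.9. Named genes are all members that passed the filter, the 6 others with the highest means, the called genes of each list or the one with the smallest p, and Slbp, H3f3a, H3f3b and H1foo. The members and lists were chosen with earlier results of these data known.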

Additional observations from a re-analysis of the deposited data

How the results depend on the processing

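No paired analysis was possible because the groups share no library numbers. The count of 2 members called higher became 1 with embryos centred on their median gene (2 when Ctrl_LNA 48 was also left out), with a pseudocount of 0.1, with a filter of 16 embryos, and in the upper runs of library numbers with or without Ctrl_LNA 48. It was 0 in the lower runs, and 10 in edgeR with no filter, which also called 2 lower, where edgeR called 5.63% of all genes higher and 5.88% lower. It was 2 in each of the 32 fits without 1 embryo, and the count called lower was 0. In those fits the log2 fold change lay between 3.73 and 4.12 for Hist1h2bc and between 2.59 and 3.07 for Hist1h2bp. With a pseudocount of 0.1, Hist1h2bp had an adjusted p of 0.0545 in limma, and it did not pass the filter of 16 embryos. The alternatives with edgeR or DESeq2 without Ctrl_LNA 48, centring or upper runs without it, edgeR with no filter, and leaving out every embryo were chosen after seeing the data.

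Several uncalled log2 fold changes changed sign, and the cause was not tested. Hist1h1a was -0.32 in edgeR, -0.22 in DESeq2, -0.44 centred on the median gene, -0.0384 scaled by total reads, -0.0571 with a pseudocount of 10, -0.22 without Ctrl_LNA 48, -0.23 in the upper runs, and -0.33 in edgeR with no filter. Without Ctrl_LNA 48 it was also -0.39 in edgeR, -0.38 in DESeq2, -0.28 centred and -0.71 in the upper runs. Hist2h3c1 was 0.0846 in edgeR, 0.28 in DESeq2 (0.0783 without Ctrl_LNA 48), 0.15 with a pseudocount of 0.1, 0.19 in the upper runs and 0.0609 in edgeR with no filter. Hist2h3c2 was 0.0541 in DESeq2. Hist1h4d was -0.0703 centred and -0.0426 in the lower runs, and Hist1h2ac -0.17 centred. H3f3b was -0.18 in edgeR, -0.0887 in DESeq2, -0.45 centred, -0.0409 scaled by total reads, -0.10 in the upper runs and -0.16 in edgeR with no filter. Slbp was 0.25 in the upper runs and 0.32 there without Ctrl_LNA 48. H1foo was -0.12 in edgeR, -0.23 in the lower runs, -0.21 in edgeR and -0.12 in DESeq2 without Ctrl_LNA 48, and -0.14 in edgeR with no filter.

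Depth limits these results: 50 of 68 members did not pass the filter on low values. A count of 0 in an embryo means that no read was seen, which leaves room for an expected count of up to about 3 reads.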
